A study of Mus musculus with 18 samples.

Results

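Macrophages can spend arginine in several ways, and 8 genes of nitric oxide, arginine and itaconate metabolism are described here: Nos2, Gch1, Slc7a2, Ass1, Arg1, Arg2, Odc1 and Irg1. They were taken by symbol from both deposited count tables, with the counts of annotation rows that share a symbol added, and are 8 of the 24059 symbols listed. The cells were C57BL/6J mouse macrophages, differentiated from bone marrow over 7 days in medium conditioned by L929 cells, a source of M-CSF. Poly-dT selected RNA was sequenced in 18 libraries, 3 in each of 6 groups. In the first table, 3 untreated libraries stand beside 3 from cells given LPS (lipopolysaccharide, the bacterial product that activates TLR4). In the second table all 4 groups received LPS: LPS alone, LPS after rHDL, LPS after cholesterol loading, and LPS after loading followed by rHDL. rHDL is CSL111, a reconstituted high-density lipoprotein made of APOA1 and soybean phosphatidylcholine, which was given on day 8 for 20 h and washed away before LPS. Loading was done before rHDL with liposomes of POPC and cholesterol. No group received rHDL without LPS, and neither the dose nor the time of LPS exposure is known from the labels. The sources do not say whether the 3 libraries of a group came from separate cultures or animals, so the tests measure the spread between these libraries, which may be technical.

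Inducible nitric oxide synthase (Nos2) oxidises arginine to nitric oxide and citrulline, and needs tetrahydrobiopterin, whose synthesis GTP cyclohydrolase (Gch1) starts. The cationic amino acid carrier Slc7a2 brings arginine into the cell, and argininosuccinate synthase (Ass1) begins the return of citrulline to arginine. The arginases compete for the same substrate: Arg1 is cytosolic and a marker of macrophages treated with IL-4, and Arg2 is mitochondrial. Both make ornithine, which ornithine decarboxylase (Odc1) turns into putrescine, the first polyamine. Irg1, now named Acod1, makes itaconate from the TCA cycle intermediate cis-aconitate and is a hallmark of LPS-treated macrophages.

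2 promoters are shown, because the genes they precede were the most abundant member after LPS (Irg1) and the member that supplies the cofactor of Nos2 (Gch1). Each is the 250 bases before the gene's start in RefSeq on GRCm38.p6, written 5′ to 3′ on the gene's strand, and capitals mark the matches to TATAAA, GGAAATTCC and the NF-kB consensus found by a search of both strands. For Irg1 the window is chr14:103046762-103047011 on the plus strand, and for Gch1 it is chr14:47189414-47189663 on the minus strand.
Irg1: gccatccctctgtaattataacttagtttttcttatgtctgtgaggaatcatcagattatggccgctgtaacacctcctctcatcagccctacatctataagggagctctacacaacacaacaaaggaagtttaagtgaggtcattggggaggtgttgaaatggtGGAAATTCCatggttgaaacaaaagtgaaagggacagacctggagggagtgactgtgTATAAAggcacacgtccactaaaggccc
Gch1: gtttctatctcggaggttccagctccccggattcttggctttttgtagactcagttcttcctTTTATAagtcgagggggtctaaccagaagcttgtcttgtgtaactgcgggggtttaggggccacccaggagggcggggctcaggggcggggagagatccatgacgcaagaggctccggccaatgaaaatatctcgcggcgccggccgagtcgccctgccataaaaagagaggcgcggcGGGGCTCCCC
In the Irg1 window the capitals are GGAAATTCC, from base −85 to −77 before the start, and the TATA box TATAAA, from −28 to −23. In the Gch1 window they are the letters TATAAA read on the opposite strand, from −188 to −183, and a match to the NF-kB consensus from −10 to −1. Of 32851 such windows of 27025 genes, 0.3% held GGAAATTCC, 12.4% TATAAA and 3.9% the NF-kB consensus. RefSeq windows matched 4 of the 8 members, the remaining ones being those of Ass1 and Odc1. These held no match to the NF-kB consensus, GGAAATTCC or TATAAA, while Ass1 had 1 E-box (CACGTG, in 6.0% of windows) and 1 GC box (GGGCGG, in 32.7%), and Odc1 had 4 GC boxes. The Gch1 window also held 2 GC boxes, 1 CCAAT (in 33.8% of windows) and 1 C/EBP-like TTNCNNAA (36.8%), and the Irg1 window 1 CCAAT, left in lower case. Matches are letters in a window and were not tested as binding sites.

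How the reads had been counted decided which members could be seen. Reads falling on exons of more than 1 annotation row were not counted in either: of 6698 rows in the second table that shared every exon base with another row, 6697 held 0 counts. Strand was not used, since all 98 rows that own a base only when strand is kept were at 0. Nos2 (chr11:78920859-78960124 in mm10, plus strand, 27 exons), Irg1 (chr14:103047012-103056573, plus strand, 5 exons), Gch1 (chr14:47153895-47189402, minus strand, 6 exons), Odc1 (chr12:17544873-17551502, plus strand, 12 exons) and Arg1 (chr10:24915207-24927470, minus strand, 8 exons) had all of their exon bases to themselves. Arg2 (chr12:79130788-79156301, plus strand, 8 exons) shared 285 of 1417 exon bases with Vti1b on the opposite strand and kept 79.9%. Ass1 (chr2:31470270-31520670, plus strand, 16 exons) kept 79 of 1631 exon bases, or 4.8%, because a predicted gene, Gm5424, covers 1552 of them on the same strand. Slc7a2 (chr8:40862367-40922070, plus strand) is listed in 2 rows of 12 exons each that share all but 1 exon, so 277 of 7857 exon bases, or 3.5%, were its rows' own.

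**Figure D1:**
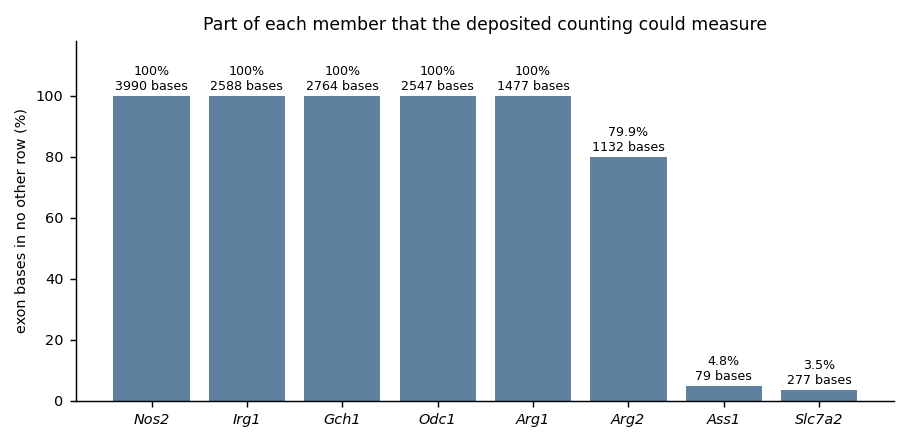
Share of each member's exon bases that lies in no other annotation row (y axis, %), with the number of such bases above each bar. Nos2, Irg1, Gch1, Odc1 and Arg1 stand at 100%, Arg2 at 79.9%, Ass1 at 4.8% and Slc7a2 at 3.5%.

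The 277 bases of Slc7a2 are a pair of coding exons used in place of each other, and every Slc7a2 count below is a read that lies inside one of them. They are printed since they carry the whole measurement: the longer has 140 bases (chr8:40908056-40908195) and the shorter 137 (chr8:40908398-40908534), both on the plus strand of mm10, from the GENCODE M21 transcripts. Capitals mark bases that differ between the exons or have no partner in their alignment.
Slc7a2 longer exon: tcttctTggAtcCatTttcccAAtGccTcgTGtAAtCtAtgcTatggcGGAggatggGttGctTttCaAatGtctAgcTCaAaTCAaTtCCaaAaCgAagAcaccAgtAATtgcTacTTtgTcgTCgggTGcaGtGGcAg
Slc7a2 shorter exon: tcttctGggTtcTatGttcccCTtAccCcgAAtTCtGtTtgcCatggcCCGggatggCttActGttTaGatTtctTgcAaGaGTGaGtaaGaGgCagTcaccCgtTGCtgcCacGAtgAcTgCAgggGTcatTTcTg
The exons matched at 86 of 141 aligned positions (61.0%). Slc7a2 is known to yield 2 carrier proteins that differ in this stretch and in their affinity for arginine.

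Counts per library summed to between 11450243 and 16835472 for the untreated and first LPS groups, and between 9464916 and 15607889 for the others. Levels are given as CPM (counts scaled to a common library size) after TMM scaling within each table, as mean ± SD of 3 libraries. The tables were scaled apart, so a level in one cannot be tested against the other. Of 10 macrophage markers, 9 were at 1 CPM or more in every group, and the remaining one, Itgam, was listed at 0 with 0.1% of its exon bases its own. Changes are log2 fold changes ± SE from edgeR's quasi-likelihood test across all genes of a table, with Benjamini-Hochberg adjusted p-values, and a gene is said to have risen or fallen where the adjusted p was under 0.05. Of the 8 members, 6 passed the filter on low counts. Arg1 and Ass1 did not and are described by their counts.

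Irg1 was the most abundant member in each of the 6 groups. In the untreated libraries it stood at 145, 137 and 153 CPM, and after LPS in the same table at 15296, 14200 and 15938 CPM. All 3 LPS libraries lay far above all 3 untreated ones. Per kilobase of its own exons its mean level was 56.0 CPM untreated and 5852 CPM after LPS. Among 20025 genes with at least 200 own exon bases, ranked on that scale, Irg1 moved from between places 1022 and 1133 to between places 7 and 11.

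Nos2 was close to silent without LPS, at 1.48, 1.21 and 1.84 CPM. After LPS its libraries held 1187, 974 and 1027 CPM. The groups did not overlap, and its place in the per-length ranking moved from 8981 to 9412 without LPS to 303 to 428 with it. Slc7a2 had 8 counts in all in the untreated libraries (0.139, 0.140 and 0.136 CPM) and stood at 62.7, 39.6 and 47.8 CPM after LPS. Its level counts only reads wholly inside either alternative exon and so understates the gene.

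Gch1 was expressed before stimulation, at 82.6, 74.6 and 82.1 CPM, and stood at 521, 573 and 616 CPM after LPS. Arg2 was low throughout, at 0.741, 0.326 and 0.544 CPM untreated and 9.51, 8.18 and 6.24 CPM after LPS. Odc1 held 28.9, 27.4 and 45.1 CPM untreated and 52.8, 57.5 and 57.1 CPM after LPS. In these 3 genes too, every LPS library was above every untreated one, although 1 untreated Odc1 library came close.

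Arg1 was near the detection limit in every group. Its counts were 4, 2 and 5 in the untreated libraries and 2, 0 and 3 after LPS in the first table. In the second table they were 3, 6 and 2 with LPS alone, 1, 3 and 2 with rHDL, 2, 4 and 3 with loading, and 2, 7 and 0 with both. The pooled level was lowest in the first table's LPS group, at 0.108 CPM of the summed library totals (exact 95% Poisson interval 0.0352 to 0.253), and highest with LPS alone in the second, at 0.358 (0.179 to 0.641). These intervals overlap and cover counting error only. Ass1 gave no more than 1 count in any library and 4 counts in all 18, with 79 bases on which it could be counted. These counts give no level for the gene, and low expression and the lack of countable bases cannot be told apart.

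**Figure D2:**
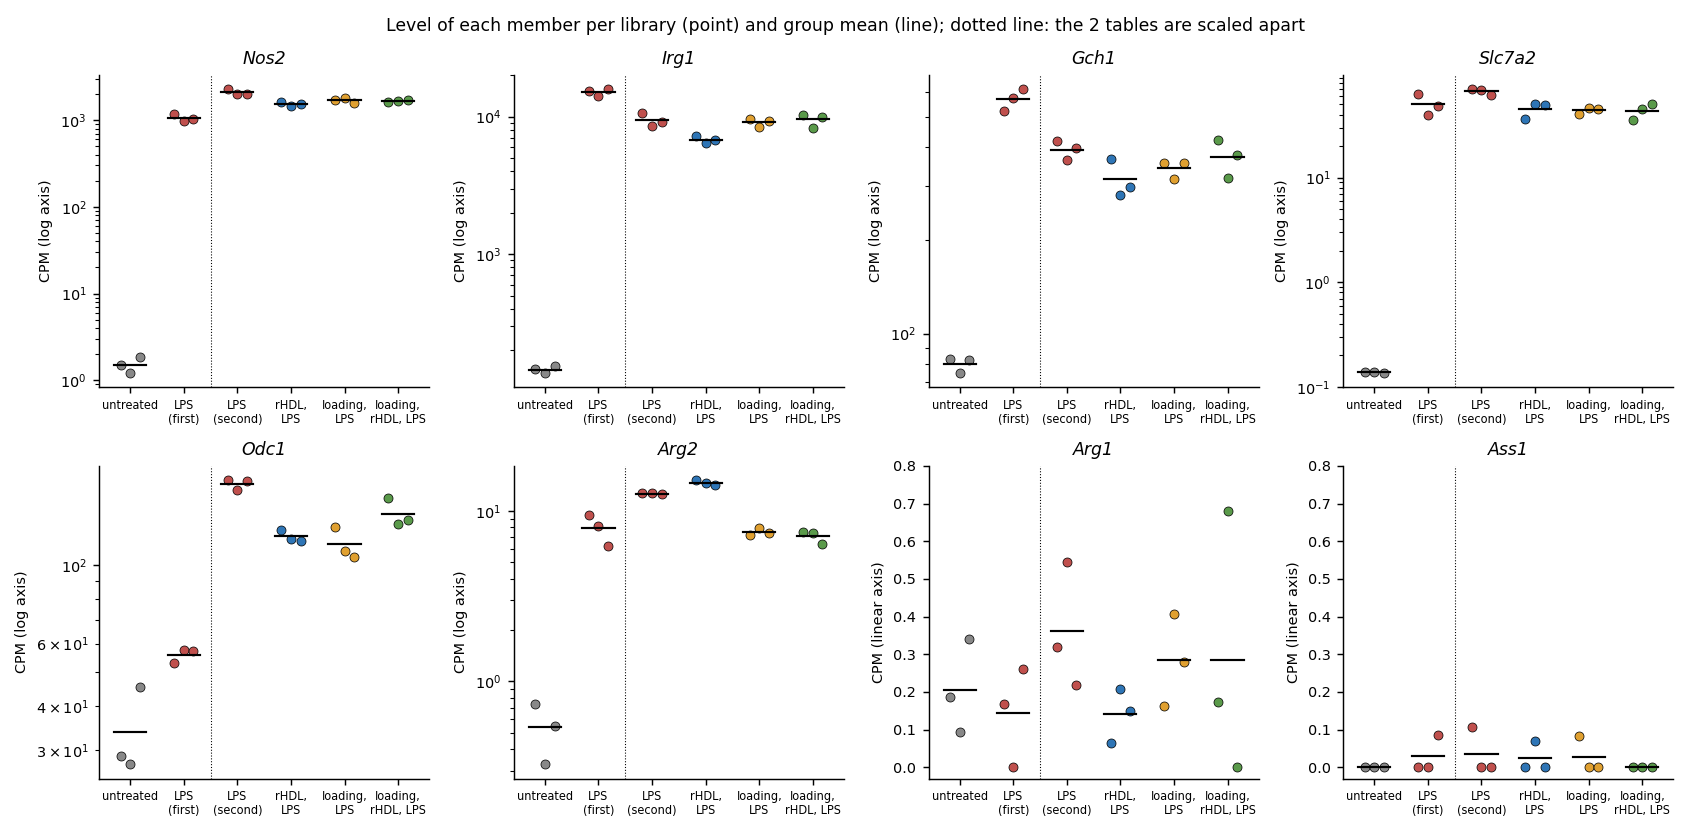
Level of each member in CPM (y axis, logarithmic except for Arg1 and Ass1) in each library (points) of the 6 groups (x axis), with group means as lines. The dotted line separates the tables, which were scaled apart. Irg1, Nos2, Slc7a2, Gch1 and Arg2 rise by more than the spread of their libraries with LPS, while Arg1 stays under 0.8 CPM.

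LPS raised all 6 members that could be tested, most of all Nos2, Slc7a2 and Irg1. Nos2 rose by 9.48 ± 0.15 on the log2 scale, or 715-fold (adjusted p = 7.70e-12), and Irg1 by 6.71 ± 0.11, or 105-fold (adjusted p = 8.07e-12). Slc7a2 rose by 8.42 ± 0.29, a fold that rests on the 8 untreated counts (adjusted p = 7.38e-10). The folds of the other members were smaller: Arg2 rose by 3.88 ± 0.28 (14.7-fold, adjusted p = 3.22e-07), Gch1 by 2.84 ± 0.09 (7.14-fold, adjusted p = 3.97e-10) and Odc1 by 0.73 ± 0.16 (1.66-fold, adjusted p = 0.00186). LPS moved much of the transcriptome: 72.9% of the 9576 genes tested were called, 35.3% as higher and 37.6% as lower, and 76.1% had groups that did not overlap. Against that background all 6 members were higher without overlap, with a median log2 change of 5.29 beside −0.05 over all genes tested. Slc7a2 (untreated counts 3, 3 and 2) and Arg2 (16, 7 and 8) passed the low-count filter through their LPS libraries. Without a rise they would have been left out like Arg1 and Ass1. Their part in the count of 6 and in the median was thus partly set by the filter. When library totals alone set the scale, the median over all genes moved to −0.77, the split of all calls from 3380 higher and 3605 lower to 1532 and 6640, and Odc1 was no longer called (log2 change 0.02, adjusted p = 0.926), whereas the other 5 kept their calls.

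The second table's LPS group had the same treatment by its labels but other levels. Nos2 held 2302, 2005 and 1995 CPM there (2101 ± 175) beside 1062 ± 111 in the first table, and Odc1 174, 163 and 172 CPM (170 ± 6.02) beside 55.8 ± 2.63. Irg1 was at 10594, 8490 and 9135 CPM (9406 ± 1078) beside 15145 ± 879. Nos2 and Odc1 were thus listed higher and Irg1 lower in the second table. Table and experiment cannot be told apart in these levels. On the per-length scale the members' means in the second LPS group ran from Irg1 (3634 CPM per kilobase) through Nos2 (527), Slc7a2 (242), Gch1 (142) and Odc1 (66.6) to Arg2 (11.2) and Arg1 (0.244). No pair of neighbours in that order overlapped between libraries. The place of Slc7a2 is uncertain, since its counts were divided by all 277 bases of both alternative exons, which are used in place of each other. Its value of 242 is therefore too low on this scale, and its order beside Nos2 is not settled.

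Exposure to rHDL before LPS lowered 5 of the 6 members by 0.32 to 0.57 on the log2 scale. Nos2 fell from 2302, 2005 and 1995 CPM with LPS alone to 1620, 1463 and 1538 CPM with rHDL, a log2 change of −0.45 ± 0.07 (1.36-fold lower, adjusted p = 0.000264). Irg1 fell to 7216, 6385 and 6789 CPM (−0.47 ± 0.10, adjusted p = 0.00196). In both, the highest rHDL library was under the lowest library with LPS alone. Slc7a2 stood at 70.6, 69.0 and 61.5 CPM without and 36.2, 50.5 and 49.0 CPM with rHDL (−0.57 ± 0.13, adjusted p = 0.00347). Odc1 went from 174, 163 and 172 to 126, 119 and 117 CPM (−0.49 ± 0.08, adjusted p = 0.000334). These also did not overlap, so the carrier, the synthase, the itaconate enzyme and the polyamine enzyme were lower together.

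Gch1 and Arg2 were the exceptions in strength and in sign. Gch1 held 417, 362 and 397 CPM with LPS alone and 366, 280 and 298 with rHDL, groups that overlap at 1 library each (−0.32 ± 0.11, adjusted p = 0.0380). Its call was lost when library totals set the scale (−0.20, adjusted p = 0.0843), without replicate 1 or 3 of the LPS group and without replicate 2 or 3 of the rHDL group (adjusted p from 0.0964 to 0.153). Arg2, the mitochondrial arginase, stood at 12.7, 12.7 and 12.5 CPM with LPS alone and 15.2, 14.6 and 14.2 CPM with rHDL. Its groups did not overlap, yet its change of 0.22 ± 0.10 was not called (adjusted p = 0.0933, 95% interval 0.03 to 0.40), and it was called with library totals as the scale (0.33, adjusted p = 0.0200).

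Without loading, rHDL changed 36.5% of the 8965 genes tested, 18.1% being higher and 18.4% lower, and 51.4% had groups that did not overlap. Of the 6 members, 5 were lower and 5 had groups without overlap, with a median of −0.46 beside 0.03 over all genes. With library totals as the scale the median of all genes was 0.14, and the split of calls went from 1621 higher and 1654 lower to 2507 and 1273. The summed level of the 10 macrophage markers, most of it from Lyz2, was also lower with rHDL, at 12270 to 14851 CPM against 21900 to 23781 with LPS alone. The mean of Lyz2 was 6449 CPM with rHDL and 13915 without. Emr1 (2253 and 3290), Csf1r (1095 and 1953), Mertk (19.0 and 48.2), Fcgr1 (130 and 791) and Spi1 (697 and 907) were lower too. Cd68 (486 and 340), Cd14 (2009 and 1822) and Marco (3.77 and 2.63) were higher with rHDL. Some markers of other cell types moved as well. The sum of 9 neutrophil markers was 3.24 to 5.15 CPM against 13.1 to 16.0, mostly through S100a8 (means 2.13 and 7.42) and Mmp8 (1.92 and 6.68). Mpo, Elane, S100a9 and Retnlg were at 0 in both groups (S100a9 has 0.6% of its exon bases to itself). The dendritic sums (2.18 to 3.20 CPM against 2.98 to 3.09) and the lymphoid sums (3.16 to 3.41 against 3.30 to 4.80) overlapped. The sum of 7 stromal and endothelial markers was 107 to 134 CPM against 57.4 to 59.4, with Dcn, Pdgfrb and Pecam1 at 0 (23.4%, 0.1% and 1.7% own bases). That rise was in Vwf (means 120 and 55.8 CPM), while Col1a1 (0.303 and 0.494), Col1a2 (0.906 and 1.37) and Cdh5 (0.229 and 0.778) had lower means with rHDL. The platelet gene Pf4 held 31.5 to 42.3 CPM with rHDL and 51.9 to 56.3 without. Their part in the members' changes was not tested, and in bulk RNA fewer cells of a type and less RNA per cell cannot be told apart. The authors' deposited table of this comparison lists 1609 genes, none of them a member. It holds no ratio between 1/1.5 and 1.5, and the members' folds were all smaller than that by the present fit.

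After cholesterol loading, no member was called with rHDL. Nos2 stood at 1729, 1783 and 1588 CPM with loading and at 1613, 1677 and 1687 with loading and rHDL (−0.04 ± 0.07, adjusted p = 0.892, 95% interval −0.18 to 0.11). Irg1 held 9665, 8386 and 9327 CPM against 10310, 8324 and 9968 (0.06 ± 0.10, adjusted p = 0.857, interval −0.13 to 0.26). The lower bounds of both intervals are closer to 0 than the changes seen without loading. Slc7a2 (40.7, 46.2 and 44.7 against 35.4, 44.7 and 50.5 CPM; −0.01 ± 0.14, interval −0.28 to 0.26), Gch1 (0.12 ± 0.11, interval −0.10 to 0.34) and Arg2 (−0.08 ± 0.11, interval −0.30 to 0.14) likewise overlapped between the groups. Odc1 was the single member whose groups did not overlap, at 128, 110 and 105 CPM with loading and 155, 131 and 134 with both. Its change pointed upward (0.29 ± 0.08, adjusted p = 0.147, interval 0.12 to 0.45). This was the only interval of a member that excluded 0, although the change was not called. Over all genes 1.02% were called, 0.424% as higher and 0.591% as lower. These were 91 genes, 38 higher and 53 lower, or 25 and 67 with library totals as the scale. A further count, 1044, had an unadjusted p under 0.05 in edgeR's test, and 15.3% had groups without overlap. Odc1 was the member among them (unadjusted p = 0.00417), and DESeq2 likewise called no member. The authors' deposited table for this comparison lists 47 genes and no member.

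The change with rHDL itself differed between loaded and unloaded cells for 4 of the 6 members, tested as an interaction. The difference, loaded minus unloaded, was 0.78 ± 0.12 for Odc1 (adjusted p = 0.000239), 0.53 ± 0.14 for Irg1 (adjusted p = 0.0107), 0.41 ± 0.10 for Nos2 (adjusted p = 0.00819) and 0.56 ± 0.19 for Slc7a2 (adjusted p = 0.0372). In each of these genes rHDL was followed by a lower level without loading and by no called change after it. After loading the change was −0.04 ± 0.07 for Nos2, 0.06 ± 0.10 for Irg1 and −0.01 ± 0.14 for Slc7a2. For Odc1 it was 0.29 ± 0.08, upward and without overlap between the groups. The Odc1 difference thus joins a fall without loading and an uncalled rise after it. The values for Gch1 (0.44 ± 0.16, adjusted p = 0.0502) and Arg2 (−0.29 ± 0.15, adjusted p = 0.156) did not pass. Across all genes 30.2% differed, 16.0% upward and 14.2% downward, and the members' median was 0.48 beside −0.03. Library totals as the scale moved the median of all genes to −0.20, the split of their calls from 1432 upward and 1272 downward to 1016 and 2124, and left Nos2 (adjusted p = 0.0735) and Slc7a2 (adjusted p = 0.164) without a call while Arg2 gained one (−0.47, adjusted p = 0.0353). Gch1 lay at the threshold: it was called without LPS replicate 2, rHDL replicate 1 or replicate 2 of the group with both (adjusted p from 0.00742 to 0.0401), by DESeq2 (0.0416) and in 4 other refits. Slc7a2 lost its call without any of 7 of the 12 libraries (LPS replicates 1 and 2, rHDL replicate 1, loading replicates 1 and 3, and replicates 2 and 3 of both treatments; adjusted p from 0.0521 to 0.0956).

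**Figure D3:**
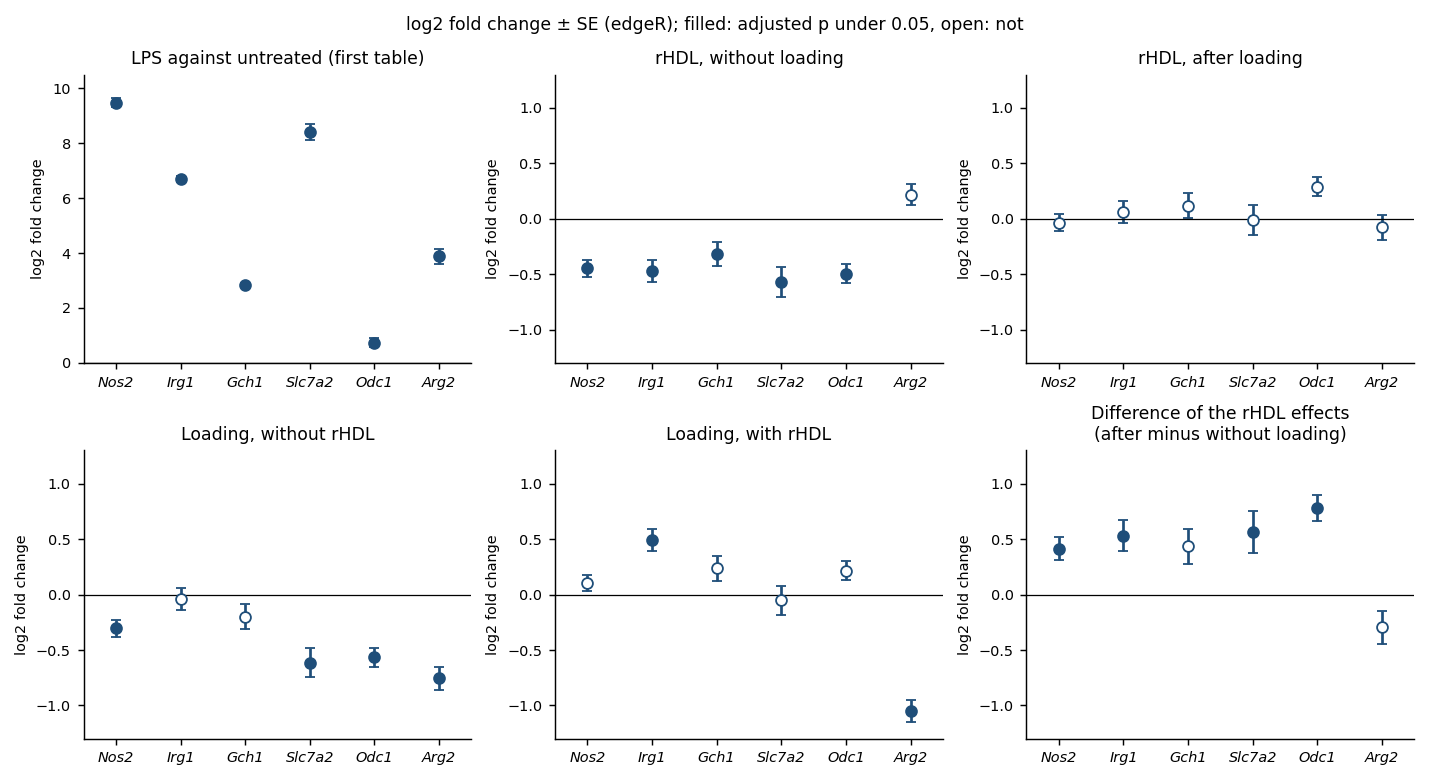
log2 fold change ± SE (y axis) of the 6 tested members (x axis) in each comparison, filled where the adjusted p was under 0.05. The first panel has its own scale; with rHDL 5 members lie below 0 without loading and none is called after loading.

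Loading alone, which shares its LPS controls with the rHDL comparison, lowered 4 of the 6 members. Arg2 fell by most: it held 12.7, 12.7 and 12.5 CPM without and 7.18, 7.95 and 7.38 CPM with loading (−0.75 ± 0.11, adjusted p = 0.000527). Odc1 stood at 128, 110 and 105 CPM with loading (−0.57 ± 0.08, adjusted p = 0.000850) and Slc7a2 at 40.7, 46.2 and 44.7 CPM (−0.61 ± 0.13, adjusted p = 0.0122). Nos2 was lower by 0.31 ± 0.07 with an adjusted p of 0.0196. Each of these 4 genes had its loaded libraries below its unloaded ones. Irg1 gave −0.04 ± 0.10 (adjusted p = 0.843) and Gch1, whose groups also did not overlap, −0.20 ± 0.11 (adjusted p = 0.307). Loading changed 8.57% of all genes tested, 3.99% being higher and 4.57% lower (358 and 410 genes, or 626 and 254 with library totals as the scale), and 32.9% had groups without overlap, which is the background for 4 members lower and 5 without overlap. The members' median was −0.44 beside 0.01. The Nos2 call was lost with library totals as the scale (adjusted p = 0.0579) and without LPS replicate 1 (0.0996), loading replicate 1 (0.0547) or loading replicate 3 (0.114). The Slc7a2 call was lost without LPS replicate 1 (0.05001) or loading replicate 1 (0.0520), so 2 members were called without either of those libraries.

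Among cells given rHDL, loading raised Irg1 and lowered Arg2. Irg1 went from 7216, 6385 and 6789 CPM with rHDL to 10310, 8324 and 9968 CPM with loading and rHDL (0.49 ± 0.10, adjusted p = 0.00147). Arg2 went the other way, from 15.2, 14.6 and 14.2 to 7.52, 7.39 and 6.39 CPM (−1.05 ± 0.10, 2.07-fold lower, adjusted p = 2.12e-06). Neither gene's groups overlapped. Odc1 (0.22 ± 0.08, adjusted p = 0.0595), Gch1 (0.24 ± 0.11, adjusted p = 0.115), Nos2 (0.11 ± 0.07, adjusted p = 0.288) and Slc7a2 (−0.05 ± 0.13, adjusted p = 0.796) were not called. Of all genes 35.6% were called, 18.5% higher and 17.1% lower (1659 and 1537 genes, or 1304 and 2009 with library totals as the scale), and 43.1% had groups without overlap, against 2 members called and 3 without overlap. Markers moved in this comparison too, with the macrophage list at 12270 to 14851 CPM with rHDL and 19117 to 23271 with both treatments, the stromal and endothelial list at 107 to 134 and 34.3 to 42.6, and Pf4 at 31.5 to 42.3 and 55.7 to 95.5. The neutrophil list stood at 3.24 to 5.15 and 6.13 to 8.75 CPM, while the dendritic (2.18 to 3.20 and 2.04 to 3.70) and lymphoid lists (3.16 to 3.41 and 2.82 to 3.83) overlapped. The part of the markers was not tested. Without rHDL replicate 1, or without replicate 2 of the group with both treatments, Gch1 (adjusted p = 0.0137 and 0.0246) and Odc1 (0.0443 and 0.0350) were called too, giving 4 members.

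Arg2 was the member that varied most over the 4 groups of the second table, its group means of log2 CPM spanning 1.03 against 0.32 for Gch1, 0.45 for Nos2, 0.48 for Irg1, 0.57 for Odc1 and 0.63 for Slc7a2. It was highest with rHDL, next with LPS alone and lowest in both loaded groups, which overlapped each other. The genes with the most similar pattern over the 12 libraries, by the root mean square difference of centred log2 CPM, were Ifrd1 (0.150), Ankrd28 (0.152) and Kitl (0.153).

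The longer of the alternative Slc7a2 exons held the majority of reads in every library given LPS. After LPS the longer exon, printed first above, took 81.6 ± 3.41% of the reads unique to either exon in the libraries of the first table, beside 76.6 ± 0.693% with LPS alone in the second. With rHDL it took 74.5 ± 3.31%, with loading 75.6 ± 1.78% and with both 78.5 ± 0.781%. Single libraries ranged from 72.35% (exact 95% binomial interval 68.74 to 75.75) to 84.57% (81.10 to 87.63). Of the 4 comparisons within the second table, rHDL after loading separated the libraries, with 77.61 to 79.09% against 74.17 to 77.56% after loading alone. An exact two-sided permutation test of 3 libraries against 3 cannot give a p under 0.1, so none of the 4 differences could pass 0.05. They were −2.09 percentage points for rHDL (exact p = 0.4), 2.93 for rHDL after loading (exact p = 0.1), −1.04 for loading (exact p = 0.5) and 3.98 for loading with rHDL (exact p = 0.2), with adjusted values from 0.4 to 0.5. The untreated libraries held 6 counts of the longer and 2 of the shorter exon, too few for a share. In CPM the longer exon fell from 51.3 ± 3.78 to 33.5 ± 4.56 with rHDL (log2 change −0.62 ± 0.12, adjusted p = 0.00108), and the shorter stood at 15.7 ± 1.21 and 11.7 ± 3.34 (−0.43 ± 0.19, adjusted p = 0.0911).

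**Figure D4:**
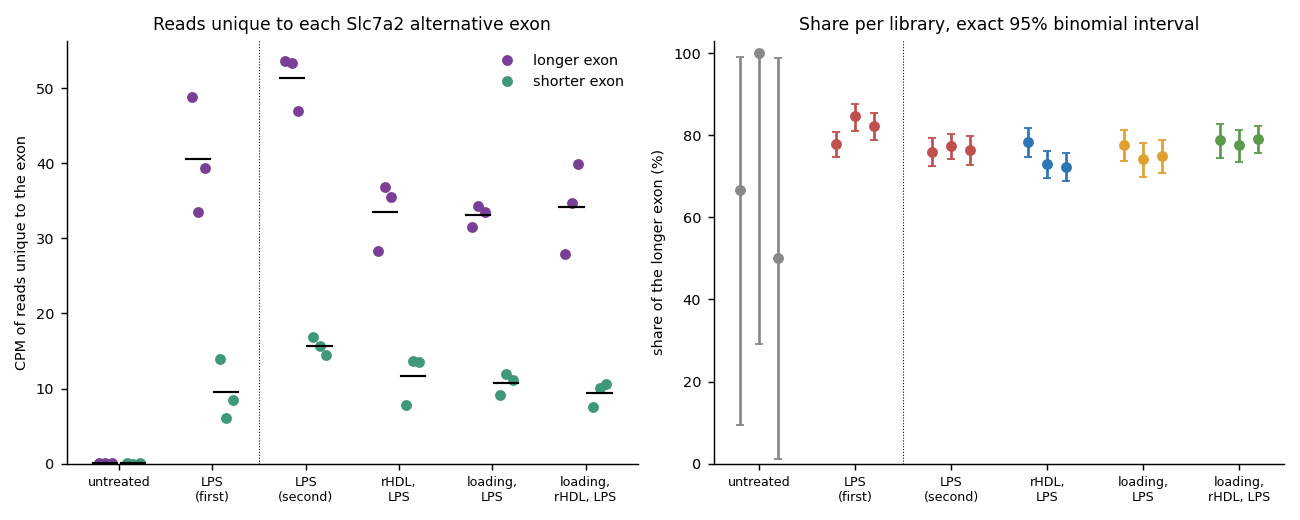
Left, CPM of reads unique to the longer and the shorter alternative exon of Slc7a2 (y axis) in each library of the 6 groups, with means as lines. Right, share of the longer exon (y axis, %) with its exact 95% binomial interval. The shares lie between 72.35 and 84.57% in the LPS libraries, and the intervals are wide in the untreated ones, where 8 counts were seen.

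The neighbours of the members were read from 7 lists of pathway genes, described by counts and medians. With LPS, where 35.3% of all genes tested were higher and 37.6% lower, 16 of 20 regulators of Nos2 and Arg1 were higher and 3 lower, with a median of 1.59. Socs3, an inhibitor of cytokine signalling, rose by 7.88 ± 0.13 (adjusted p = 8.07e-12), and the NF-kB subunit Nfkb1 by 2.93 ± 0.08 (adjusted p = 1.43e-10). Of 7 alternative activation genes tested, 4 were higher and none lower, led by the chemokine Ccl22 (8.67 ± 0.18, adjusted p = 2.69e-11). Of 6 tetrahydrobiopterin genes tested beside Gch1, none was higher and 3 were lower, among them the terminal reductase Spr (−0.74 ± 0.13, adjusted p = 0.000336) and Cbr1 (−0.89 ± 0.11, adjusted p = 2.28e-05). Among 8 genes of arginine transport and citrulline recycling, the other cationic carrier Slc7a1 rose (2.21 ± 0.09, adjusted p = 3.45e-09), 2 in all being higher and 3 lower. Of 24 TCA cycle and itaconate genes 9 were higher and 3 lower, and of 14 polyamine and proline genes 4 were higher and 5 lower. The lists moved with the scaling. With library totals the TCA list had 1 higher and 21 lower, the polyamine list 1 and 10, the alternative activation list 4 and 3, the tetrahydrobiopterin list 0 and 6, the arginine list 2 and 6, and the regulators 15 and 5. Of 3 genes that handle nitric oxide, 1 was higher and 2 lower, or 0 and 2 with library totals. Slc13a3, a dicarboxylate carrier known to take up itaconate, was higher under either scale (1.03 ± 0.13, adjusted p = 2.62e-05, and 0.31 with library totals).

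With rHDL, several listed genes of the members' pathways were higher where the member was lower. While Odc1 fell, 6 of the 11 other polyamine and proline genes tested were higher and none lower (median 0.39 beside 0.03 over all genes, of which 18.1% were higher), among them spermidine synthase Srm (0.63 ± 0.10, adjusted p = 0.000276) and ornithine aminotransferase Oat (0.52 ± 0.07, adjusted p = 7.28e-05). Asl, the enzyme that follows Ass1 in citrulline recycling, rose from 29.2 to 48.6 CPM (0.74 ± 0.07, adjusted p = 2.95e-06), and that list had 2 higher and 2 lower of 8. Of 23 TCA cycle genes 8 were higher and the 1 lower gene was Slc13a3 (−0.92 ± 0.18, adjusted p = 0.00109). That count of 8 was 16 with library totals as the scale and 5 to 7 when 1 library was left out. Of 6 tetrahydrobiopterin genes, Cbr1 (0.58 ± 0.13, adjusted p = 0.00241) and Spr (0.37 ± 0.12, adjusted p = 0.0264) were higher, and Spr lost its call without 5 of the 6 libraries in turn. Of the genes that handle nitric oxide 2 could be tested, and 1, glutathione reductase Gsr, was lower (−0.23 ± 0.08, adjusted p = 0.0289), a call lost without 4 of the 6 libraries and with library totals as the scale.

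Of 20 regulators tested with rHDL, 8 were lower, 2 higher and 10 not called, beside 18.4% lower and 18.1% higher over all genes. Their median was −0.19, or −0.07 with library totals as the scale. The IL-4 receptor chain Il4ra fell from 1298 to 542 CPM (−1.26 ± 0.10, adjusted p = 3.28e-07), the interferon receptor chain Ifnar1 by 0.81 ± 0.07 (adjusted p = 4.96e-07) and the transcription factor Irf8 by 1.24 ± 0.17 (adjusted p = 6.29e-05). A second interferon receptor chain, Ifnar2, was lower by 0.66 ± 0.07 (adjusted p = 5.24e-06). The alternative activation list split: 4 of 6 were lower, with Ccl24 at −2.86 ± 0.18 (adjusted p = 4.14e-08), and Ccl17 (2.74 ± 0.18, adjusted p = 6.10e-08) and Ccl22 (1.10 ± 0.11, adjusted p = 4.47e-06) were higher. After loading, none of the 76 list genes tested was called with rHDL by edgeR, 13 had an unadjusted p under 0.05, and DESeq2 called 2. Of all genes 1.02% were called there.

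With loading alone 9 of the 76 list genes were higher and 8 lower, or 14 and 7 with library totals as the scale, beside 3.99% higher and 4.57% lower over all genes. Il4ra (−0.71 ± 0.10, adjusted p = 0.000432) and Hif1a (−0.43 ± 0.07, adjusted p = 0.00203) were lower, with 6 regulators lower and none higher, a count that ranged from 2 to 5 when 1 library was left out. Of the TCA list 5 genes were higher and none lower, led by the dicarboxylate carrier Slc25a10 (0.77 ± 0.11, adjusted p = 0.000733), and 1 to 3 were called when a library was left out and 10 with library totals as the scale. Ccl22 was higher (1.36 ± 0.12, adjusted p = 4.82e-06), and no polyamine gene of 11 was called. The difference between the rHDL effects was called for 16 list genes upward and 20 downward of 76, or 11 and 33 with library totals as the scale, beside 16.0% upward and 14.2% downward over all genes. These included Il4ra (1.61 ± 0.14, adjusted p = 2.45e-06) upward and Asl (−0.92 ± 0.10, adjusted p = 2.41e-05) downward.

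**Figure D5:**
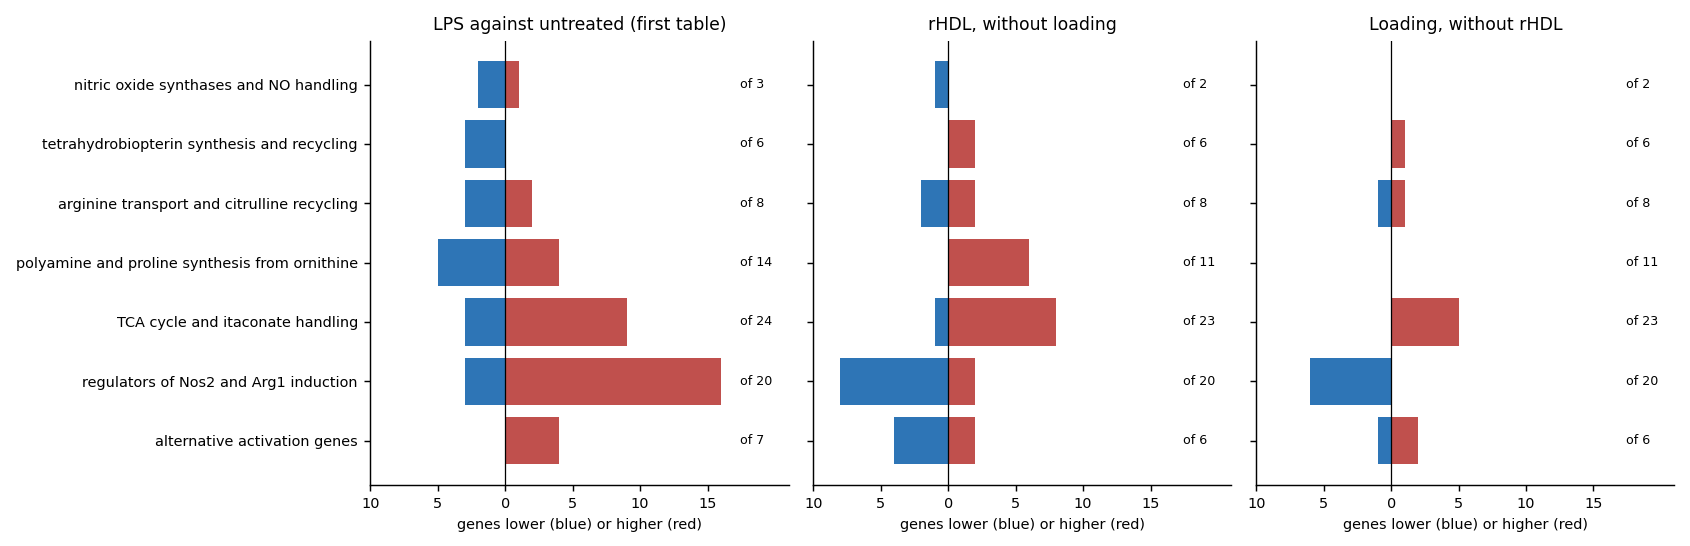
Number of genes of each pathway list called lower (blue, left of 0) or higher (red, right of 0) in 3 comparisons, with the number tested at the right of each row. With LPS 16 of 20 regulators are higher; with rHDL 8 of 20 are lower and 6 of 11 polyamine and proline genes are higher.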

How the data were processed

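The deposited tables hold whole-number counts per annotation row, made by the authors with cutadapt, HISAT2 and Subread featureCounts on mm10 per the submitters' processing notes; no versions are recorded there. The authors' deposited comparisons hold log2 and linear fold ratios and adjusted p-values, attributed to DESeq2 by the same notes, and were used to look up the members. Rows of a symbol were added. edgeR 4.0.16 (R 4.3.3) was fitted to each table apart: TMM scaling, filterByExpr with a minimum count of 10, quasi-likelihood F tests, and Benjamini-Hochberg adjustment over all genes at 0.05. The 4 groups of the second table shared 1 fit, and the difference of rHDL effects was its interaction. SE is the log2 change divided by the square root of F. The 95% intervals of log2 changes use this SE with a normal multiplier, and so are somewhat narrower than the F test implies. Depth limits low genes such as Arg1. The Poisson and binomial intervals cover counting error only, while those of log2 changes include the spread between libraries. The steps were tested on simulated data. Alternatives were library totals, DESeq2 size factors, DESeq2 1.42.0, other filters, groups fitted alone, a replicate block, and each library left out. All members are named, and of each pathway list at most 4 called genes per comparison with the smallest p. The members and lists were chosen with earlier results of these data known.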

Additional observations from a re-analysis of the deposited data

Results flagged for a closer look

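For 4 members the change with rHDL differed between cholesterol-loaded and unloaded cells by a test of the difference itself, the interaction term of edgeR's quasi-likelihood fit over 12 libraries. The rHDL effect after loading minus that without was 0.41 on the log2 scale for Nos2 (adjusted p = 0.00819), 0.53 for Irg1 (adjusted p = 0.0107), 0.56 for Slc7a2 (adjusted p = 0.0372) and 0.78 for Odc1 (adjusted p = 0.000239). Irg1 and Odc1 kept this call in each of 19 alternative fits, Nos2 in 18 of 19, and Slc7a2 in 11 of 20, counting the separate fits of its exon rows. Gch1 (0.44, adjusted p = 0.0502) and Arg2, which pointed the other way (−0.29, adjusted p = 0.156), were not called by the same test. Over all 8965 genes tested 30.2% differed, 16.0% upward and 14.2% downward.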

How the results depend on the processing

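No member changed direction while called under the alternatives run. Of the members' single values under the alternatives, 492 kept direction and side of the threshold, 24 lost a call and 18 gained one; of the named list genes' values 1508 kept both, 89 lost the call and 1 reversed (Cs with LPS under library totals, −0.018). The genes called with rHDL after loading, 91 in the main analysis, numbered 176 without the count filter, 167 by DESeq2 and 42 with the 2 groups fitted alone, and 30 to 123 with a library left out. Those called with loading, 768 in the main analysis, numbered 1216 with the 2 groups fitted alone and 350 to 594 without a library. Members called went from 4 to 2 with loading and from 2 to 4 for loading with rHDL when single libraries were left out; the causes were not tested. Libraries of the same number correlated in their deviations at −0.03 to 0.44 over 18 pairs of the second table and −0.08 to 0.07 over 3 pairs of the first, with 13 and 0 pairs over 0.1, and since the labels give no shared source and not every pair passed 0.1, the block was kept as an alternative. With a replicate block, 486 genes were called with rHDL after loading and 1651 with loading, 1 member with rHDL after loading (Odc1, 0.29, adjusted p = 0.00876) and 4 with loading among rHDL-treated cells, and in Gch1 the loading effect (−0.20, adjusted p = 0.0297) and the difference of rHDL effects (adjusted p = 0.000559) were called. Of the 12 libraries of the second table, 10 correlated best with their own number, a hint from the data and not from the design. Depth limits Arg1 and the shorter Slc7a2 exon. For Ass1, low expression and the lack of countable bases cannot be told apart.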
